A study of Schmidtea mediterranea with 58 samples.

Results

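The regions described here are stretches of the *Schmidtea mediterranea* genome where H3K4me3 was higher in untreated Xins cells than in untreated X1 cells. They were taken from the authors' table of regions that differed between these cell populations. A region was kept when the mean normalized read count in Xins was at least 2 times that in X1 and when both Xins libraries lay above both X1 libraries. This left 343 of 1378 listed regions, on 280 of 841 scaffolds. By the mirrored rule, 653 regions were higher in X1, and 382 regions met neither rule. The table names its groups only as treatment and control, and X1, which its name puts first, was taken to be the treatment. If that order were wrong, every mention of X1 and Xins in the untreated comparison would change places. The table also breaks off within its last line, so regions beyond that point were not analysed here.

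ChIP-seq, in which chromatin bound by an antibody is sequenced, was carried out for H3K4me3 in whole worms and in sorted cells of this planarian flatworm, to find where the mark depends on *set1* and on *mll*. The untreated comparison used 2 X1 and 2 Xins libraries of wild-type worms. RNAi was by feeding of double-stranded RNA, over 6 days for *set1* and 9 days for *mll*, and the material was again whole worms, X1 or Xins. Each RNAi group had *unc* RNAi control libraries of its own, for which no number of days is stated (2 libraries against 2 in each of 6 tables). RNAi lowers the RNA of the target gene and does not delete it, the level of the targets was not measured in these data, and nothing in the labels says whether the 2 libraries of a group came from separate worms, so that the spread between them may be technical.

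H3K4me3 is trimethylation of a lysine near the tip of histone H3. It lies mainly around the starts of genes that are transcribed, and it is laid down by enzyme complexes built around SET1 or MLL family methyltransferases. In planarians, X1 is the usual name of the dividing, irradiation-sensitive cells that sorting by DNA content isolates, most of which are the adult stem cells called neoblasts, and Xins is that of the irradiation-insensitive cells, which are mostly differentiated. The tables pair regions with gene identifiers and not with gene names, so neither population could be checked against its marker genes.

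Values are normalized read counts per library, as the authors scaled them. The worth of 1 read could be recovered for all 1378 regions of the untreated table. It was 0.918 to 0.929 units in the first-listed X1 library, 0.275 to 0.278 in the second, 4.43 to 4.56 in the first-listed Xins library and 0.858 in the second. The 343 regions held a median of 5 reads in the first-listed X1 library (0 to 90), 16 in the second (0 to 309), 7 in the first-listed Xins library (2 to 46) and 32 in the second (9 to 162). The first-listed Xins library was therefore counted most coarsely, and 98 of the regions rested on fewer than 5 reads there. Both libraries entered the rule, but the libraries of a group differed by at least 2 times from each other at 53 of 296 regions in X1 (those above 0 in both libraries) and at 38 of 343 in Xins.

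The regions ranged from a slight bias towards Xins to near absence of reads in X1. All values of this and the next paragraphs on untreated cells describe the contrast that chose the regions, so no test was applied to them. The mean normalized count over the libraries of a group had a median of 27.8 in Xins (quartiles 19.8 and 46.1) and 4.50 in X1 (quartiles 1.65 and 12.3). Among the 336 regions with any read in X1, the median ratio of Xins to X1 was 5.74 (quartiles 2.74 and 13.4). The ratio lay between 2 and 3 at 91 regions, between 3 and 5 at 63, between 5 and 10 at 76, between 10 and 20 at 51, and at 20 or more at 55. The other 7 regions had no read in either X1 library. Taking the lower Xins library over the higher X1 library of each region, the gap had a median of 3.73. It was at least 2 times at 265 regions and under 1.5 times at 30.

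**Figure D1:**
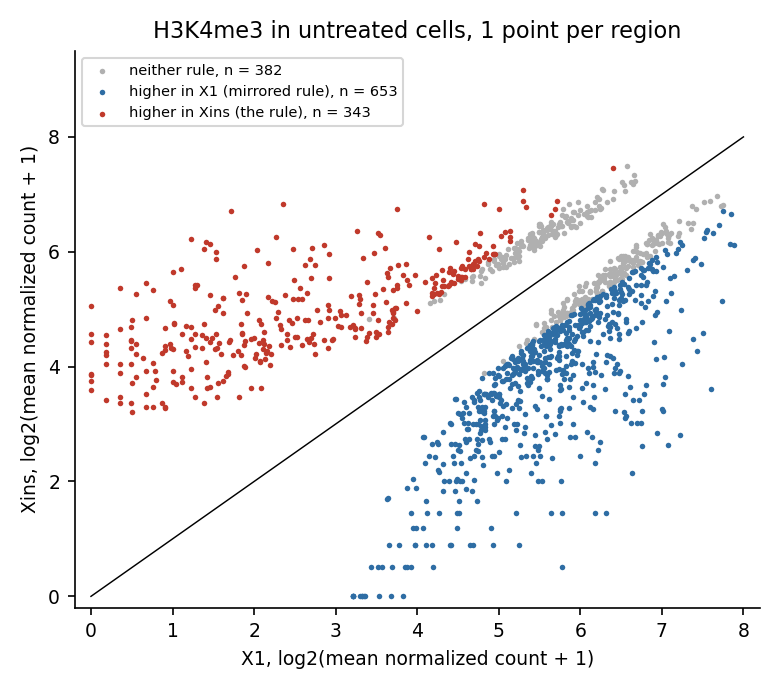
Mean normalized read count of each of the 1378 listed regions in untreated X1 (horizontal, log2 of the count + 1) and untreated Xins (vertical, same scale), with a line at equality. The 343 regions higher in Xins (red) spread from near 0 to 83.8 in X1, the 653 regions higher in X1 (blue) mirror them below the line, and the empty strip along the line is there because the table lists only regions that differed.

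Enrichment over input in X1 ran from below the level of input to well above it. Input is chromatin sequenced without the antibody, and a single deposited enrichment stands for each group. In Xins every region was above input, with a median enrichment of 8.78 and a lowest value of 1.90. In X1, 161 of the 343 regions (46.9%) lay below 1, the level of input, with a median of 0.390. These held medians of 2 and 5 reads in the X1 libraries, so absence of the mark is not shown. The other 182 regions had a median enrichment of 4.31 in X1 and 12.3 in Xins. Among the 653 regions higher in X1, the median enrichment was 14.1 in X1 and 3.87 in Xins. Per kilobase, the Xins level of the 161 regions was 11.4 normalized counts at the median, against 24.8 in the 182.

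Enrichment over input and the read counts mostly ranked the cell types alike. Enrichment was at least 2 times higher in Xins at 300 of the 343 regions. At 8 regions it was not higher in Xins at all. One of these lay on scaffold v31.000107 from 105501 to 106500, with normalized counts of 11.93 and 12.66 in X1 and 45.59 and 17.16 in Xins, but with an enrichment of 17.92 in X1 and 15.98 in Xins. Another lay on scaffold v31.000091 from 187101 to 188800, with an enrichment of 17.9 in X1 and 11.96 in Xins. These regions met the rule on counts and not on enrichment.

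The 5 regions with the highest counts in Xins, not corrected for their length, also carried the mark in X1. The highest, on scaffold v31.000090 from 279501 to 282400 and at a distance of 0 bases from a gene start, had 209.7 and 139 normalized counts in the Xins libraries and 82.6 and 85.1 in the X1 libraries. This was also the highest Xins level per kilobase, 60.1 normalized counts. Its ratio was 2.08, close to the threshold. The next, on scaffold v31.000663 from 15101 to 17700 and also at a gene start, had 141 and 127 in Xins and 33.0 and 43.8 in X1. Scaffold v31.001202 from 19901 to 22100 had 119.6 and 113 in Xins and 52.0 and 50.9 in X1. On scaffold v31.000258, a stretch of 4500 bases from 153101 to 157600 had 95.7 and 131 in Xins and 28.5 and 26.2 in X1. At all of these the lower Xins library was well above the higher X1 library, and X1 enrichment reached 13.6.

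The remaining region of these 5 bordered on one with the opposite bias. The region on scaffold v31.000230 from 128201 to 130500, 812 bases away from any gene start, held 118.5 and 114.9 normalized counts in Xins and 34.9 and 41.6 in X1. The table lists another region from 130101 to 131900 that overlaps its end and reaches a gene start (distance 0), and there the counts were 61.5 and 71.6 in X1 and 31.9 and 23.2 in Xins. Of all 343 regions, this was the only 1 that overlapped a region higher in X1, and 6 lay within 1000 bases of one.

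At the other end, 7 regions had no read in either X1 library. The highest of them in Xins, on scaffold v31.000742 from 20201 to 22200 and 1711 bases from a gene start, held 6 and 43 reads in the Xins libraries (27.4 and 36.9 normalized counts). Against a floor of 3 reads in each X1 library (a mean of 1.79 normalized counts) it was at least 17.9-fold higher in Xins. Next, scaffold v31.000990 from 41201 to 43200 had 26.6 and 18.9 in Xins and was at least 12.6-fold higher. Scaffold v31.001225 from 71201 to 73000 had 22.2 and 18.9 and was at least 11.3-fold higher, and both lay at a gene start. Fewer reads lay behind the others, of which scaffold v31.000043 from 156701 to 158100 had 13.7 in both Xins libraries, from 3 and 16 reads, and the region on scaffold v31.000529 from 2401 to 3400 had 18.2 and 8.58, from 4 and 10 reads. Counts of this size set only coarse lower bounds, 7.66-fold and 7.49-fold, and the bounds of the remaining 2, on scaffolds v31.000074 and v31.000943, were 6.93-fold and 6.22-fold.

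Regions near the threshold differed little across it. Just inside lay scaffold v31.001288 from 15501 to 16600, with 23.9 and 22.0 in X1 against 59.3 and 32.6 in Xins. Scaffold v31.000055 from 228201 to 229200 had 24.8 and 19.6 in X1 against 54.7 and 34.3 in Xins, and that on scaffold v31.000090 from 299801 to 301600 had 29.4 and 27.5 in X1 against 54.7 and 60.0 in Xins. Just outside, scaffold v31.000100 from 99901 to 101400 had 39.5 and 48.7 in X1 against 95.7 and 80.6 in Xins. Scaffold v31.000943 from 50501 to 51800 had 16.5 and 17.1 in X1 against 27.4 and 39.5 in Xins, and scaffold v31.001092 from 74901 to 76800 had 49.2 and 39.7 in X1 against 106.4 and 70.4 in Xins. The ratios ran from 2.00 to 2.02 inside and from 1.99 to 2.00 outside, so that membership at this edge turned on a few reads.

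**Figure D2:**
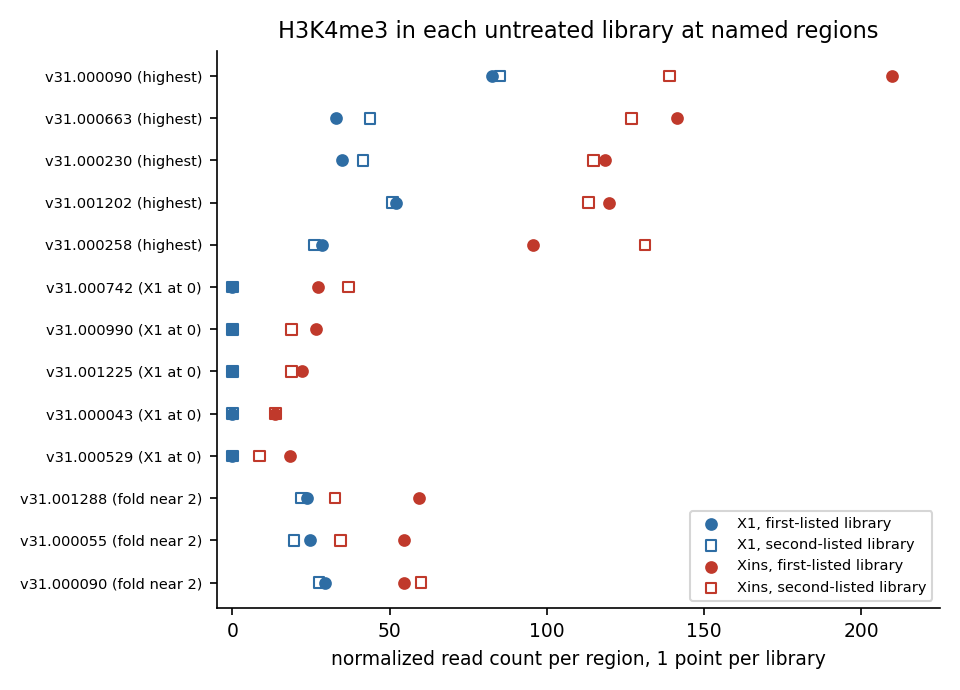
Normalized read count (horizontal) in each untreated library at the 13 named regions above, 1 row per region: X1 in blue, Xins in red, first-listed libraries as filled circles and second-listed libraries as open squares. The 5 rows marked X1 at 0 have both X1 points on 0, and in the 3 rows with a fold near 2 the groups stand apart while the Xins libraries of the first of them are 59.3 and 32.6.

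The regions lay close to gene starts, which the rule did not use. The distance to the nearest listed start was 0 bases at 251 of the 343 regions (73.2%), at most 200 bases at 268 (78.1%), more than 200 and up to 1000 bases at 38 (11.1%) and still more at 37 (10.8%). Among the 653 regions higher in X1, the distance was 0 at 272 (41.7%), at most 200 bases at 316 (48.4%) and more than 200 and up to 1000 bases at 280 (42.9%). The median distance was 0 bases in the former and 250 bases in the latter. Of the 382 regions that met neither rule, 193 (50.5%) lay at a distance of 0. Regions higher in Xins lay at a gene start in similar shares at or above input in X1 (75.8% within 200 bases) and below it (80.7%).

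The regions were also somewhat longer, with a median of 1800 bases (quartiles 1200 and 2200) against 1500 bases (quartiles 1100 and 2100) in the regions higher in X1. The 161 regions below input in X1 had a median of 1900 bases, and 8 of them (4.97%) had the shortest length listed, 1000 bases, against 43 (23.6%) of the other 182. Several gene starts fell within 200 bases of 43 regions (12.5%), against 38 (5.82%) of those higher in X1. The 382 regions that met neither rule had a median length of 1400 bases. The part that length has in the distances to gene starts and in these shares was not tested. The regions were scattered: 226 scaffolds held 1 of them, 46 held 2 and 8 held 3 or 4, and 35 regions lay within 5000 bases of another. Of the 313 gene identifiers within 200 bases of a region higher in Xins, 0 were also within 200 bases of one higher in X1. Only 1 region higher in Xins overlapped one higher in X1, and 6 lay within 1000 bases of one. Few gene starts could therefore lie near both kinds of region, so the 0 does not show that they mark separate genes. No p-value is given for these shares, which come from 1 table of regions chosen by the authors.

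The regions were then followed through the 6 RNAi tables by an overlap of at least 1 base. Each of these tables lists only regions that the authors' program retained for its own comparison, so an absent region is not shown to be unchanged. Most regions were absent: 252 of 343 (73.5%) overlapped no region of any RNAi table, 40 overlapped regions of 1 table, 45 of 2 tables and 6 of 3. Of the 653 regions higher in X1, 238 (36.4%) were absent from all tables. The tables of whole worms listed most of those found, with 80 regions overlapped in the *set1* table (23.3%, exact Clopper-Pearson 95% interval 18.9 to 28.2) and 61 in the *mll* table (17.8%, 13.9 to 22.2). Of the regions higher in X1, 54.5% (50.6 to 58.4) and 46.1% (42.2 to 50.0) were overlapped. Both sets were overlapped less often than the 382 regions that met neither rule, at 91.4% (88.1 to 94.0) and 80.4% (76.0 to 84.2). The intervals cover the counting of regions only. Of the *set1* whole-worm list of 8633 regions, 96 (1.11%) overlapped regions higher in Xins, and of the *mll* list of 5169, 64 (1.24%) did.

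Sorted cells gave few overlaps. The *set1* X1 table of 554 regions reached 3 of the 343 (0.875%, 0.181 to 2.53) and 79 of the 653 regions higher in X1 (12.1%, 9.70 to 14.8). The *mll* X1 table of 306 regions reached 3 of the 343 (0.875%) and 32 of the 653 (4.90%, 3.38 to 6.85). In Xins, where these regions carry most of the mark, the *set1* table of 106 regions reached 0 of the 343, which with the exact interval allows a share of up to 1.07%, and 5 of the 653. The *mll* table of 12 regions reached 1 of the 343 (0.292%). Depth differed between these tables. A listed region held a median of 632 to 1186 reads per library in whole worms and 30.5 to 148 in the RNAi tables of sorted cells where reads could be recovered, and the part that depth has in these shares was not tested.

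Which regions appeared in the RNAi tables went with the fold between X1 and Xins, with enrichment in X1 and with the level in Xins. These were not separated from each other. Of the 161 regions below input in X1, 7 (6 in the *set1* and 4 in the *mll* whole-worm table, some in both) were overlapped by any table. Of the 182 regions at or above input in X1, 84 were. In the *set1* whole-worm table this was 3.73% (1.38 to 7.93) against 40.7% (33.5 to 48.2), and for *mll* it was 2.48% (0.681 to 6.24) against 31.3% (24.7 to 38.6). By the ratio of Xins to X1, 69.2% of the 91 regions under 3 times, 22.2% of the 63 between 3 and 5 times, 10.5% of the 76 between 5 and 10 times and 5.31% of the 113 at 10 times or more (those at 0 in X1 included) were overlapped by any table. Regions higher in X1 were all above input there, with a lowest enrichment of 1.36. The same order by fold held among them, at 83.8%, 59.7%, 37.5% and 24.1%, each above its counterpart. Level moved with it, since 60.5% of the 76 regions with an Xins mean of at least 50, 22.9% of the 179 between 20 and 50 and 4.55% of the 88 under 20 were overlapped. The distance to a gene start did not, with 26.9% overlapped within 200 bases of a start, 26.3% between 200 and 1000 bases and 24.3% further away.

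**Figure D3:**
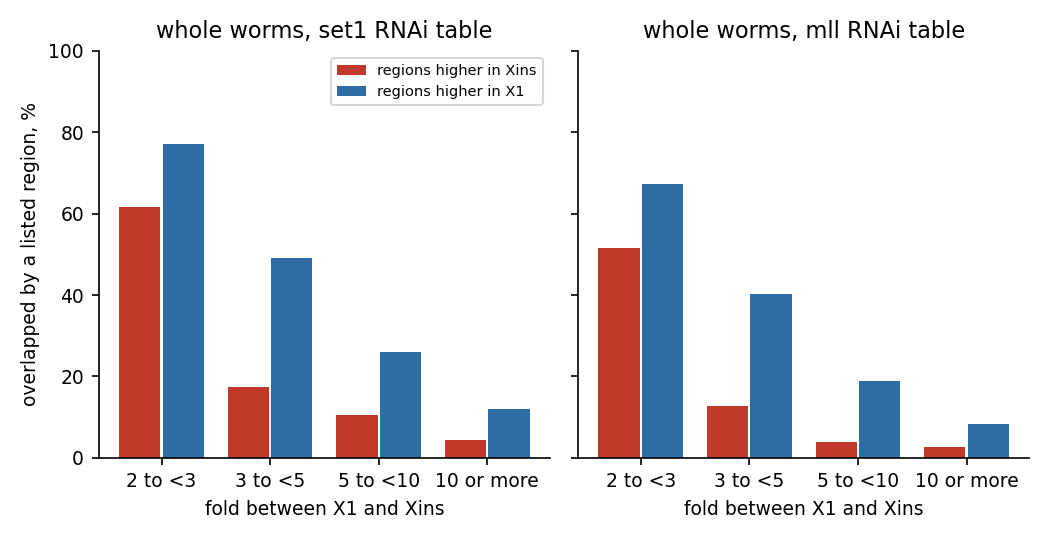
Share of regions overlapped by a listed region of the *set1* (left) or *mll* (right) whole-worm table, by the fold between X1 and Xins, for regions higher in Xins (red) and higher in X1 (blue). The last class includes regions at 0 in the lower cell type, and the red bars fall from 61.5% to 4.42% on the left and from 51.6% to 2.65% on the right, below the blue bar of every class.

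In whole worms, *set1* RNAi moved these regions in both directions by small amounts. Each table was fitted with limma on log2(normalized count + 1), with Benjamini-Hochberg adjustment over all its listed regions, and a region was called at an adjusted p below 0.05. The listed regions had been chosen on the same libraries, so a call says only that a difference exceeded the estimated spread between libraries. That spread was moderated over all listed regions of a table, so the SE and p-value of a region do not measure its own spread alone. Of the 96 listed regions that overlapped the 343, 26 (27.1%) were called lower, where 25.8% of all 8633 were, and 17 (17.7%) were called higher, where 15.1% of all were. The remaining 53 were not called. Both shares lie near the background. At more of the 26 called lower than not, enrichment over input was higher in *set1* RNAi than in control, against the direction of the counts. Counted by region higher in Xins, 27 had a region called lower and 18 one called higher, 3 of them both. The median log2 change was -0.04, against 0.01 over the table, and the changes ran from -0.32 to 0.30. Without 1 library the 18 fell to as few as 10 (first-listed *set1* RNAi library), and the 27 to 17 (second-listed control).

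The lowest change after *set1* RNAi in whole worms was at a region below input in X1. On scaffold v31.000339 from 189701 to 192500, untreated X1 had 4.59 and 3.03 normalized counts and Xins 72.9 and 77.2. The overlapping listed region, from 190401 to 192100, had 737 and 812 in *set1* RNAi and 947 and 989 in the control worms. The groups did not overlap, and the log2 change was -0.32 ± 0.05 (SE, limma adjusted p 1.27e-10).

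Another 4 regions followed when each was ranked by the listed region that shared most bases with it, and all 4 were overlapped only at 1 end. On scaffold v31.000204, the region from 202301 to 203500 shared 400 bases with a listed region that fell by 0.32 on the log2 scale (1096 and 1137 in *set1* RNAi against 1426 and 1359). On scaffold v31.000150, the region from 105701 to 107900 shared 1500 bases with one that fell by 0.24 (823 and 835 against 949 and 1008). On scaffold v31.000342, the region from 2301 to 3300 shared 500 bases with one that fell by 0.23 (689 and 651 against 782 and 791), and on scaffold v31.000165, the region from 179501 to 180600 shared 600 bases with one that fell by 0.23 (641 and 643 against 743 and 763). All were called, and in each both RNAi libraries lay below both controls. Enrichment over input was lower in RNAi than in control on scaffolds v31.000204 (11.4 against 12.67) and v31.000150 (8.35 against 9.34). On scaffolds v31.000342 (10.76 against 10.16) and v31.000165 (8.17 against 6.6) it was higher, against the direction of the counts. On scaffold v31.000656, the region from 44001 to 45100 touched a listed region that fell by 0.26 over 100 bases only, while the listed region with most shared bases there rose by 0.16, both called. The fall at a partly overlapped region is that of the listed stretch and need not be that of the stretch biased to Xins.

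The rises after *set1* RNAi were of like size. The largest was on scaffold v31.000539, where the region from 21301 to 22300 overlapped a listed region from 20201 to 22200 with 1363 and 1348 in *set1* RNAi and 1070 and 1136 in the control (log2 change 0.30 ± 0.04, limma adjusted p 3.40e-11). On scaffold v31.001503, the region from 52901 to 53900, near the start of SMED30017893, had 583 and 626 against 514 and 505 (0.25). On scaffold v31.000014, the region from 186801 to 188600 had 874 and 939.6 against 805 and 753 (0.22). On scaffold v31.000263, the region from 17001 to 18700 had 868 and 899 against 802 and 733 (0.20), and without the second-listed control library this change was 0.14 and not called. On scaffold v31.001288, the region from 15501 to 16600 had 1198 and 1207 against 1087 and 1016 (0.19). Of these 5 rising regions, all had been at 10.84 or more in every X1 library.

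*Mll* RNAi in whole worms moved more of the regions downwards than upwards in the deposited scaling. Of the 64 listed regions that overlapped the 343, 23 (35.9%) were called lower, where 26.3% of all 5169 were, and 8 (12.5%) were called higher, where 10.9% were. Counted by region higher in Xins, these were 23 and 8. The median log2 change was -0.04, against -0.03 over the table, and the changes ran from -0.97 to 0.34. The direction of these calls rests on the scaling. When the libraries were recentred to the same median over the listed regions, which moved the median change of the table by 0.10, 15 were called lower and 27 higher, and over the whole table the calls turned from 1361 lower and 564 higher to 782 lower and 2197 higher. For *set1* the same step gave 21 lower and 20 higher, and 1862 lower and 1743 higher over the table.

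**Figure D4:**
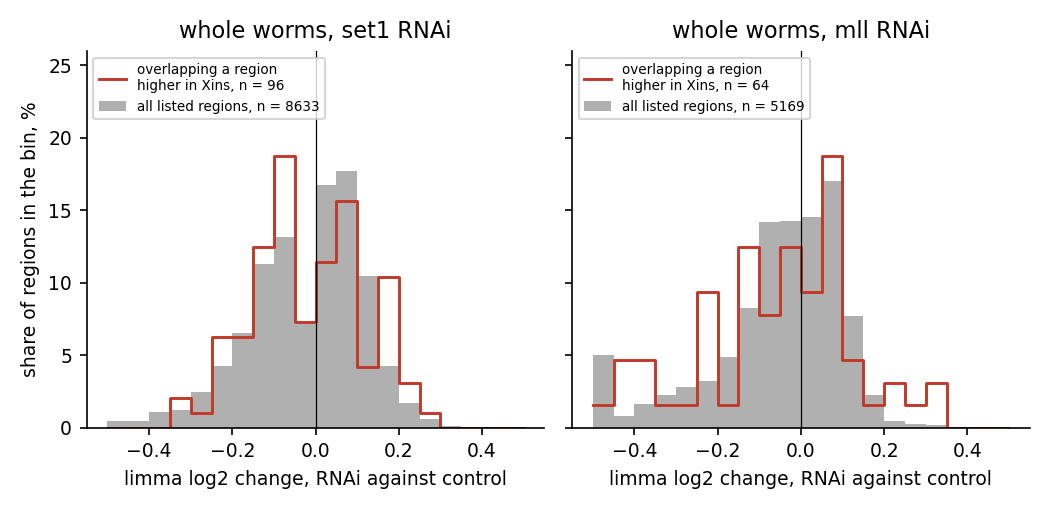
Distribution of limma log2 changes (RNAi against control, bins of 0.05, values beyond 0.5 in either direction placed in the outermost bins) in whole worms for all listed regions (grey) and for those that overlapped regions higher in Xins (red line), as a share of each set. On the *set1* side the red line spans -0.32 to 0.30, and on the *mll* side it reaches from -0.97 to 0.34.

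One region fell well beyond the others after *mll* RNAi. On scaffold v31.000042, the region from 170901 to 171900, close to the start of SMED30008735 and SMED30013791, had 8.26 and 6.06 normalized counts in untreated X1 and 27.4 and 23.2 in Xins. The listed region from 171101 to 173000, which shares 800 bases with it, had 507 and 488 in *mll* RNAi worms and 960.2 and 989 in the controls. Each RNAi library lay far below both controls, and the log2 change was -0.97 ± 0.05 (SE, limma adjusted p 2.06e-84). Enrichment over input fell there from 3.94 to 2.04. After *set1* RNAi the stretch from 171001 to 172200 had 851 and 884 against 814 and 825, a log2 change of 0.08 with a limma adjusted p of 0.141.

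The other falls after *mll* RNAi were smaller. On scaffold v31.000014, the listed stretch had 612 and 545 in *mll* RNAi against 802 and 771 (-0.45 ± 0.05). That on scaffold v31.000539 had 669 and 699.6 against 899 and 958 (-0.44 ± 0.05). On scaffold v31.000017, the region from 257201 to 259000, 11267 bases from a gene start, had 633 and 535 against 771 and 766 (-0.40), and on scaffold v31.000084, the region from 178101 to 179300 had 609 and 542 against 769 and 739 (-0.39). In these 4 the RNAi and control libraries did not overlap, and none changed direction when the libraries were recentred.

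The rises after *mll* RNAi took in regions above and below input in X1. On scaffold v31.000026, the region from 24801 to 26900, at the start of SMED30013013, had 949 and 1124 in *mll* RNAi against 797 and 838 (0.34 ± 0.04, limma adjusted p 5.42e-14). On scaffold v31.001355, the region from 105501 to 108100 was nearly bare in untreated X1 (1.86 and 1.95) and had 66.5 and 59.2 in Xins, and its listed stretch of 1000 bases had 501 and 497 against 410.4 and 393 (0.31 ± 0.06). On scaffold v31.001286, the region from 13701 to 17900 had 682 and 660.3 against 561 and 537 (0.29). On scaffold v31.001511, the region from 81201 to 82700 had 696 and 716 against 599 and 614 (0.22). On scaffold v31.000663, the second-highest region in Xins, the listed stretch had 1011 and 957 against 871 and 831 (0.21). All 5 were called also with the libraries recentred. Enrichment over input did not rise at all of them. It was lower in RNAi than in control on scaffolds v31.001355 (6.33 against 7.7) and v31.000026 (7.92 against 8.01). On scaffolds v31.001286 (6.05 against 5.3), v31.001511 (6.46 against 4.78) and v31.000663 (9.01 against 7.3) it was higher.

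The few regions below input in X1 that any table listed numbered 7. Besides those on scaffolds v31.000339 and v31.001355, scaffold v31.001030 from 104301 to 107700 had 1.84 and 2.75 in X1 against 95.7 and 112 in Xins and was listed after *set1* RNAi alone. On scaffold v31.000802, the regions from 27601 to 28600 (0.92 and 0.55 in X1, 18.2 and 10.3 in Xins) and from 29001 to 30100 (0.0 and 1.93 in X1, 27.4 and 12.9 in Xins) lay close together and were listed after *set1* RNAi alone. The other 2 were on scaffold v31.000791 from 55401 to 56700, listed in both whole-worm tables, and on scaffold v31.000753, described below.

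Both whole-worm tables listed 51 of the 343 regions, *set1* alone listed 29 and *mll* alone 10. The tables come from separate libraries and separate scalings, and worms were fed for 6 and for 9 days, so the difference between the knockdowns was not tested. Values are given side by side. Among the 51, taking the listed region with most shared bases, the change was lower after both at 12, lower after *set1* and higher after *mll* at 13, higher after *set1* and lower after *mll* at 18, and higher after both at 8. At 13 of the 51 (25.5%) the change was called in both tables, where 15.6% of the 6394 *set1* regions that overlap an *mll* region were. Of the 13, 5 (38.5%) were lower in both, 7 (53.8%) were higher after *set1* and lower after *mll*, 1 (7.69%) was lower after *set1* and higher after *mll*, and 0 were higher in both. Over the 1000 regions called in both tables these shares were 31.7%, 28.4%, 31.5% and 8.40%. Opposite changes made up 61.5% of the 13 and 59.9% of the 1000, so their share lies near the background. With recentred libraries the called counts in these 4 classes became 4, 5, 8 and 3 in that order, and 10 of the 13 were called as before.

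The region on scaffold v31.000539 had the widest opposite changes among these, with 0.30 after *set1* and -0.44 after *mll* (values of each library above). On scaffold v31.000014 the changes were 0.22 after *set1* and -0.45 after *mll*, and on scaffold v31.001299 from 57301 to 58300 they were 0.16 and -0.35, from 774 and 836 against 734 and 701 after *set1* and 504 and 539 against 681 and 651 after *mll*. Called in both tables as deposited, 1 region was lower after *set1* and higher after *mll*, that on scaffold v31.001511, with 699 and 674 against 769 and 801 after *set1* (-0.19). Its enrichment over input was higher in RNAi than in control after both, 7.25 against 7.16 after *set1* and 6.46 against 4.78 after *mll*. The largest fall in counts shared by both was on scaffold v31.000271 from 135701 to 136700. It had 687 and 687 against 802 and 802 after *set1* (-0.22 ± 0.05) and 511 and 453 against 607 and 572 after *mll* (-0.29 ± 0.06). Enrichment over input there was lower after *mll* RNAi (5.53 against 7.54 in control) but higher after *set1* RNAi (7.59 against 6.54). On scaffold v31.000017 the changes were -0.16 and -0.40, and on scaffold v31.000206 from 70701 to 72400 they were -0.15 and -0.37. At each of these regions the RNAi libraries stood apart from their own controls in both tables.

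**Figure D5:**
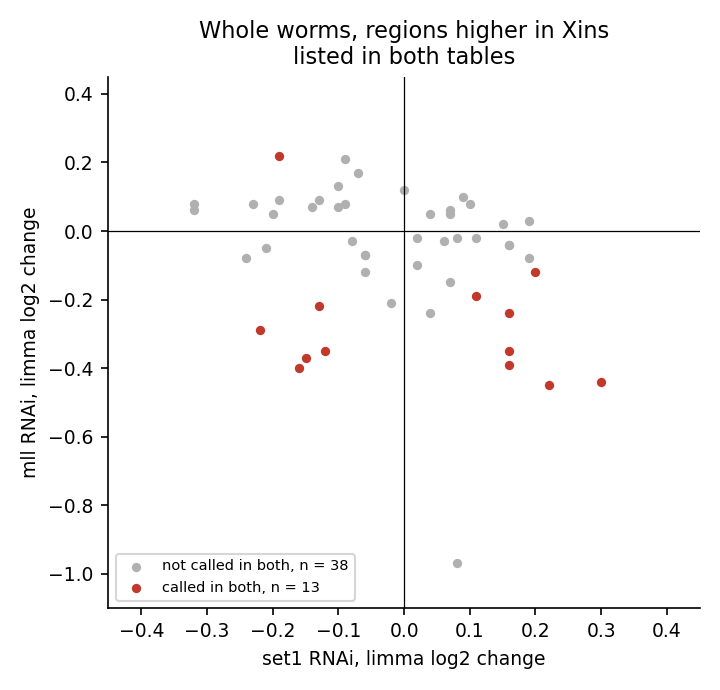
Limma log2 change after *set1* RNAi (horizontal) and after *mll* RNAi (vertical) in whole worms at the 51 regions higher in Xins that both tables listed, 1 point per region, with the 13 called in both in red. The red points lie in the lower left (5), the lower right (7) and the upper left (1), the upper right holds no red point, and the lowest grey point is the region on scaffold v31.000042 at 0.08 and -0.97.

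In sorted X1 cells, *set1* RNAi lowered the mark at a listed region beside each of 3 regions higher in Xins. All 3 were called, where 99.8% of the 554 listed regions were called lower. On scaffold v31.000204 the listed region from 201601 to 202700 had 62.3 and 45.5 in *set1* RNAi against 107.8 and 109 (-1.01 ± 0.16). On scaffold v31.000107 the listed region from 106201 to 107500 had 76.7 and 56.3 against 123 and 128 (-0.93 ± 0.14). On scaffold v31.001667 the listed region from 64201 to 65600 had 69.5 and 77.9 against 130.2 and 137 (-0.85 ± 0.13), beside the region higher in Xins from 65301 to 67200. The falls were close to the median of all listed regions, -0.89. Each listed region shared only 300 or 400 bases with the region higher in Xins and lay nearer to a gene start.

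After *mll* RNAi in X1, 3 regions were reached as well and all were called lower, where 92.2% of the 306 listed regions were and 6.54% were called higher. On scaffold v31.000090 the region from 299801 to 301600, 1 of those just inside the threshold, had 37.6 and 48.1 in its listed stretch against 92.7 and 76.1 (-0.97 ± 0.17). On scaffold v31.000753 the region from 24901 to 26000 shared only 100 bases with a listed region that had 70.1 and 82.2 against 122 and 125 (-0.69 ± 0.12), although the region itself had 0.92 and 0.83 in untreated X1. On scaffold v31.000042 the listed region from 171501 to 173000 had 75.2 and 86.9 against 135 and 125 (-0.68 ± 0.12). The median over all listed regions was -1.08. In the recentred libraries the table medians moved by 0.88 (*set1*) and 1.11 (*mll*), and relative to that these 6 regions were no longer called lower, with changes of -0.13, -0.04 and 0.03 after *set1* and of 0.15, 0.42 and 0.44 after *mll*, the last 2 called higher.

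In Xins, 1 region was reached, and it was the same region on scaffold v31.000539 that had moved in opposite directions in whole worms. After *mll* RNAi the listed region from 20401 to 22100 had 46.4 and 35.5 in Xins against 81.5 and 67.9 in the control (-0.86 ± 0.21, limma adjusted p 0.00387). All 12 regions of this table were called lower (100%). With recentred libraries, which moved the median of the table by 1.03, 1 of the 12 was called and the change at this region was 0.17, and without any of 3 of the 4 libraries it was not called, at -0.67, -0.73 and -0.99. The *set1* Xins table, in which all 106 regions (100%) were called lower, reached 0 of the 343, so no change was measured there.

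Followed across tables, 6 regions were listed in 3 tables each. On scaffold v31.001667 the listed stretch changed by -0.85 in X1 and by -0.14 in whole worms after *set1* RNAi (1647 and 1576 against 1763 and 1795) and by 0.07 after *mll* RNAi, which was not called. On scaffold v31.000107 it changed by -0.93 in X1 and -0.19 in whole worms after *set1* and by 0.09, not called, after *mll*. On scaffold v31.000204 it changed by -1.01 and -0.32 after *set1* and by 0.06, not called, after *mll*. In whole worms after *set1*, enrichment over input was higher in RNAi than in control on scaffolds v31.001667 (14.44 against 13.92) and v31.000107 (13.05 against 12.22). On scaffold v31.000204 it was lower (11.4 against 12.67). On scaffold v31.000042 the order was the other way, with -0.68 in X1 and -0.97 in whole worms after *mll* and 0.08, not called, after *set1*. On scaffold v31.000753 the changes after *mll* were -0.69 in X1 and -0.22 in whole worms, and after *set1* -0.13 in whole worms (called, limma adjusted p 0.0140). The sixth was the region on scaffold v31.000539. The 5 regions highest in Xins were listed in the whole-worm tables only. On scaffold v31.000090 the region from 279501 to 282400 changed by 0.07 after *set1* (1635 and 1694 against 1578 and 1605) and by 0.06 after *mll*, neither called. On scaffold v31.000663 the change was -0.09, not called, after *set1* and 0.21, called, after *mll*. On scaffold v31.000230 it was -0.21, called, after *set1* (1329 and 1326 against 1540 and 1521) and -0.05, not called, after *mll*. Enrichment over input there was higher in *set1* RNAi than in control (9.96 against 9.36). Both listed stretches there end at 130800, so they also cover part of the adjoining region higher in X1, which starts at 130101. The listed stretches on scaffolds v31.001202 and v31.000258 changed by -0.06 to 0.02, and none was called.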

How the data were processed

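H3K4me3 ChIP-seq libraries were compared by the authors 2 against 2 in 7 tables made with diffReps. CASAVA 1.8.2, Bowtie and MACS2 are named in the submitters' processing notes. The diffReps settings, the other versions and the build are not given in the sources used here. What the authors deposited per region is the normalized read count in every library, the group mean signal, the enrichment over input as a ratio and the distance to a gene start. Their own fold changes and p-values, also deposited, were not used. Each region was counted once. Libraries in a cell carry no names and are called first-listed and second-listed. Cross-linked *Drosophila* cells appear in the protocol, and their role is not given.

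Recovered reads are values divided by the step of which all values of a library and run of scaffolds are whole multiples (tolerance 0.0075). The regions and lists were chosen with earlier results of these data known. Log2(normalized count + 1) was analysed in limma 3.58.1 (R 4.3.3) using moderated variances (a trend on the mean at 50 or more regions) and Benjamini-Hochberg adjustment at 0.05, and tested on simulated data. No count model was used, since the steps differ between runs. Regions are named by rule: highest Xins mean, 0 in X1, nearest the threshold, 5 lowest and 5 highest called changes per whole-worm table, all reached in sorted cells, most tables, and largest changes in both whole-worm tables. Regions named for their enrichment or for an overlap with a region higher in X1, and that on scaffold v31.000656, were chosen after their values were seen. Alternatives were other pseudocounts, filters, scalings, overlaps and fold thresholds, and leaving out each library.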

Additional observations from a re-analysis of the deposited data

Results flagged for a closer look

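Among the 13 regions higher in Xins that were called in both whole-worm tables, 8 moved in opposite directions after the knockdowns, with every RNAi library on 1 side of its controls after *set1* and on the other side after *mll*. Opposite changes made up 61.5% of these 13 and 59.9% of all 1000 regions called in both tables. The difference between the knockdowns was not tested, since the tables were scaled separately. After *mll* RNAi the log2 changes at the 7 regions that were higher after *set1* RNAi were -0.44 on scaffold v31.000539, -0.45 on v31.000014, -0.35 on v31.001299, -0.39 on v31.000084, -0.24 on v31.000739, -0.12 on v31.000263 and -0.19 on v31.000221. The region on scaffold v31.001511, lower after *set1* RNAi, changed by 0.22. These directions are those of the listed region with most shared bases. On scaffold v31.000084 another listed region, from 179101 to 180100, shared 200 bases with the region higher in Xins. It was called lower after *set1* RNAi (488 and 517 against 593 and 585, -0.23), so the opposite change there does not hold for the whole stretch. With libraries recentred, 6 of the 8 were called in both tables in the same directions. Enrichment over input did not show opposite changes at all 8. On scaffold v31.001511 it was higher in RNAi than in control after *set1* (7.25 against 7.16) and after *mll* (6.46 against 4.78). On scaffold v31.000739 it was higher also after *mll* (7.69 against 7.57). At the other regions of the 8 it went with the counts.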

How the results depend on the processing

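Counts of regions higher in Xins with a called listed region moved with the fold that defines them and with the scaling. At 1.5-fold (491 regions) they were 63 lower and 60 higher after *set1* and 58 and 22 after *mll* in whole worms, 5 (*set1*) and 12 (*mll*) lower in X1, and 1 lower after *set1* in Xins. At 3-fold (252 regions) they were 6 and 3 after *set1* and 4 and 3 after *mll* in whole worms, 0 after *set1* in X1 and 0 after *mll* in Xins. Asking the overlap to cover 50% of the shorter region left 14 lower after *set1* in whole worms, and 0 (*set1*) and 1 (*mll*) in X1. Counting regions within 1000 bases gave 5 lower after *set1* in X1. Recentred libraries gave 15 lower and 27 higher after *mll* in whole worms and 0 lower in X1 after either knockdown and in Xins after *mll*. Recentring turned 5 changes in sorted cells, to 0.03 (v31.001667, *set1*), and to 0.15 (v31.000090), 0.42 (v31.000753), 0.44 (v31.000042) and 0.17 (v31.000539, Xins) after *mll*, by its construction, since those tables list almost only falls. Requiring an enrichment at least 2 times higher in Xins as well, chosen after seeing the data, kept 300 regions and gave 17 lower after *set1*, 9 lower and 5 higher after *mll* in whole worms, 1 lower after *set1* in X1 and 0 after *mll* in Xins. Leaving out 1 library gave 17 to 20 lower and 10 to 14 higher after *set1* and 17 to 22 lower and 6 to 12 higher after *mll* in whole worms, 0 to 1 after *mll* in Xins, and 311 to 379 regions by the rule. Here the lone library is assumed to vary like the others. Pseudocounts of 0.5 or 5, a mean count of at least 20, no variance trend and a change of at least 0.1 left every count within 1.5 times. No paired analysis was possible because the columns carry no replicate numbers. Medians of 5 and 7 reads in the first-listed X1 and Xins libraries limit the ratios.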
